A study of Mus musculus with 4 samples.

Results

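The potassium channel genes measured here are 74 genes, of 18193 genes named by the array. They were taken by symbol from the platform's probe-to-gene table: Kcn, a letter and a number, together with the Kcnm genes of the large-conductance calcium-activated channel. Of 71 symbols that began with Kcn, a letter and a digit, 1 was left out because it names a noncoding antisense transcript (Kcnq1ot1), and 4 Kcnm genes were added. Each gene was represented by the probe set that was brightest on average over the 4 arrays, among 141 probe sets that name 1 of these genes alone. No measured value other than this brightness entered the choice of probe set, and genotype played no part in that choice. The channel genes as a topic were chosen with earlier results of these data known. By family the genes comprised 31 voltage-gated (Kv), 15 inward rectifier (Kir, Kcnj), 12 2-pore domain (K2P, Kcnk) and 8 calcium-activated (KCa, Kcnm and Kcnn) genes. A further 3 were Kcnt and Kcnu genes (sodium-activated channels and the sperm channel Kcnu1), and 5 were Kcne genes, which encode small accessory subunits.

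Each array carried RNA from the brain of a separate male C57BL/6 mouse aged 8 to 9 weeks: 2 were wild type (+/+) and 2 lacked Bcas1 (-/-), and all came from heterozygous (+/-) parents. The sample descriptions name the cerebrum. Bcas1 encodes a protein of myelin-forming oligodendrocytes, and the design asks which brain RNAs differ when it is disrupted. The sources used here do not give how the allele was made. Values are log2 levels computed by the authors with RMA, so a difference of 1 is a 2-fold change.

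Potassium channels let potassium leave or enter cells and so set the resting potential, shape the action potential and limit repetitive firing. Kv channels open on depolarisation, Kir channels pass current best near rest, K2P channels leak, and KCa channels open as internal calcium rises. In white matter, Kv channels of the Kcna family sit under the myelin sheath beside the nodes of Ranvier, and Kir channels of glia take up the potassium that active axons release.

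The arrays differed little in their overall distribution, with medians of 6.49 to 6.51. The brightest Bcas1 probe set measured 12.17 and 12.21 in wild-type mice and 11.05 and 10.75 in knockouts, which is -1.29 (SE 0.12) and had a limma adjusted p of 0.742. The dimmer Bcas1 probe sets were higher in the knockout, by 0.77 and 0.64, and the sources used here do not place them against the allele. The second knockout array stood apart in some nasal mucosa markers. The mean of 7 of them was 6.80 in it, against 4.94, 5.07 and 4.89 in the wild-type arrays and the first knockout array. In it Obp1a measured 8.92, Bpifa1 8.33 and Cyp2g1 7.12, against at most 4.15, 4.32 and 4.99 in the other arrays. Omp, Reg3g and Muc5b were higher in it by far less, and Bpifb1, at 5.85, lay within the range of the others. Cerebellar markers were bright although the descriptions name the cerebrum. Their mean over 9 genes was 10.81 and 10.79 in wild-type mice and 10.75 and 10.76 in knockouts. Of these genes 2 had positive and 6 negative differences, with a median of -0.015. The part of cerebellar tissue in the channel values was not tested. Marker means of neurons (12.27 to 12.32) and astrocytes (11.05 to 11.15) were high in all arrays. Because whole tissue was measured, fewer cells of a type and less RNA per cell cannot be told apart.

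No potassium channel gene passed the test, and differences between genotypes were small in every family. Of the 74 genes 0 had an adjusted p under 0.05 in limma, and each adjusted p was 1. Over all genes 0% were called higher and 0.0055% (1 gene) lower, and a count of 0 among 74 matches that background. At an unadjusted p under 0.05 there were 3 genes in limma, 1 higher (Kcns2) and 2 lower (Kcng1 and Kcnh8), where the same limit took 1.68% of all genes as higher and 1.07% as lower. The differences ran from -0.28 (Kcnh8) to 0.27 (Kcns2), with a median of -0.01 beside 0.005 over all genes. The median size without regard to sign was 0.055 for the channel genes and 0.055 for all genes.

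The intervals give the range of differences that the values of each gene allow. They do not give the size of change that the adjusted test would call. Bcas1 itself, at -1.29, had a limma adjusted p of 0.742. For 70 of the 74 genes the 95% interval of the difference lay within a 1.5-fold change in either direction, as it did for 95.8% of all genes. The exceptions were Kcnh5, Kcnj15, Kcnk16 and Kcnv2, all dimmer than the median probe set. Among the 53 channel genes above the median probe-set level of 6.49 all intervals lay within 1.5-fold, beside 98.7% of all genes above it, and reached at most from -0.45 to 0.54. These intervals are those of single genes, without adjustment for their number, and rest on a variance that limma draws toward all probe sets. In 55 of the 74 genes (74.3%) the 2 mice of one genotype lay farther apart than the genotype means did, as in 78.8% of all genes.

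**Figure D1:**
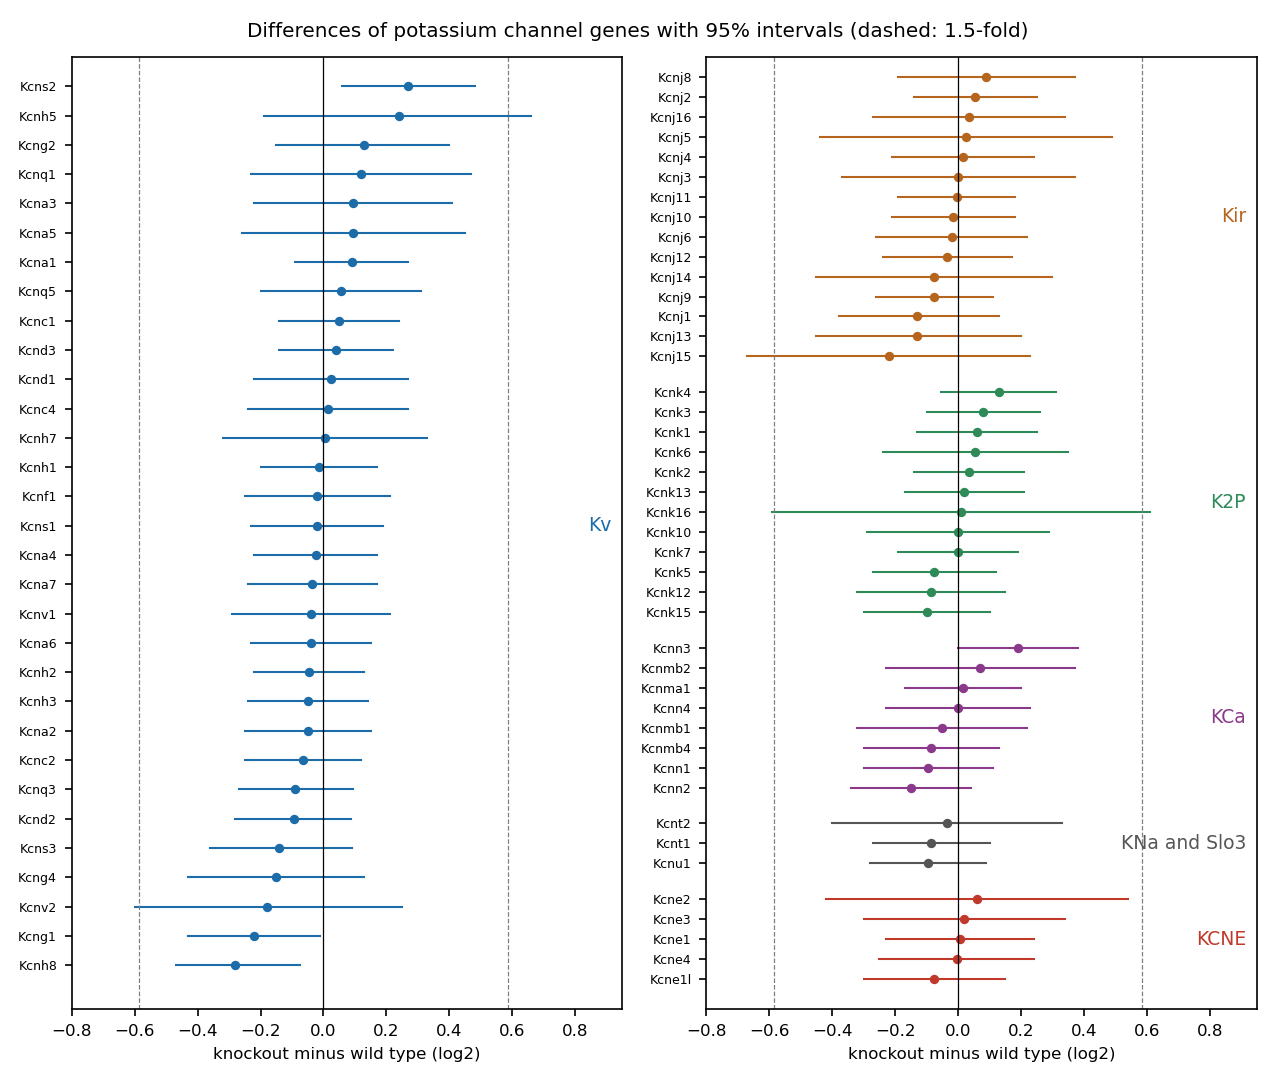
The horizontal axis gives the knockout minus wild-type difference in log2 units for each of the 74 genes, sorted within family. Points are differences of group means (2 mice each), lines are 95% intervals from limma, and dashed lines mark 1.5-fold. The points lie between -0.28 and 0.27, and the lines of Kcnh5, Kcnj15, Kcnk16 and Kcnv2 cross a dashed line.

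The genotypes did not overlap for 24 of the channel genes, 9 with both knockout mice above both wild-type mice and 15 with both below. Over all genes 15.5% were higher and 12.8% lower without overlap, 28.3% together, beside 32.4% of the channel genes. The shares are close to the background and are no result about the channel genes. By family the counts without overlap were 4 higher and 8 lower for Kv, 1 and 1 for Kir, 3 and 2 for K2P, 1 and 2 for KCa, 0 and 2 for the Kcnt and Kcnu genes and 0 and 0 for Kcne.

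Family medians lay within 0.03 of 0 for the 4 large families. The median difference was -0.02 for Kv, -0.015 for Kir, 0.015 for K2P and -0.025 for KCa. The 3 Kcnt and Kcnu genes had a median of -0.085 and the 5 Kcne genes one of 0.005. For the 4 large families the arrays of one genotype differed by more than this, and for the 3 Kcnt and Kcnu genes both knockout medians (-0.013 and -0.073) lay below the wild-type ones (0.058 and 0.028). For the KCa genes the median deviation from each gene's mean over the 4 arrays was 0.026 and -0.005 in wild-type mice and -0.086 and 0.059 in knockouts, so the knockout mice lay on both sides of the wild-type mice. For the Kv genes these medians were -0.015 and 0.025 in wild-type mice and -0.055 and 0.013 in knockouts, again overlapping. Over all genes the same medians were -0.0075 and 0.0025 in wild-type mice and -0.02 and 0.028 in knockouts. The families were not tested against each other.

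**Figure D2:**
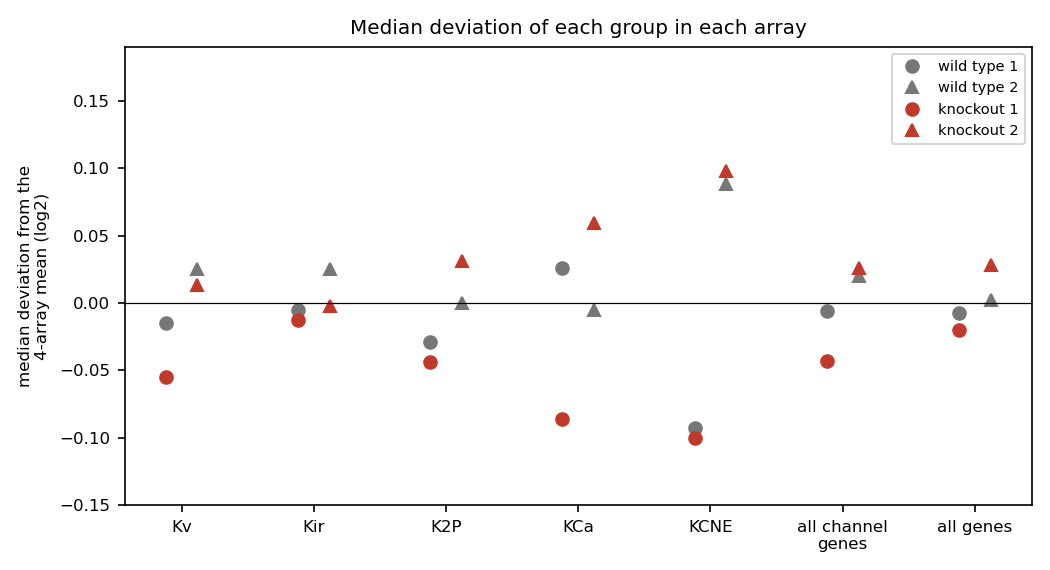
The vertical axis gives, for each array, the median over a family's genes of the deviation from the gene's own mean over the 4 arrays (log2). Grey marks are wild type and red marks knockout, with circles for mouse 1 and triangles for mouse 2. The Kcnt and Kcnu genes are not drawn. In each column drawn knockout 1 is the lowest mark, and knockout 2 lies between the wild-type marks (Kv and Kir) or above both.

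The RefSeq promoter table (GRCm38.p6, from 250 bases before to 50 after each start) held 72 promoters of 56 of the channel genes. Their median GC content was 58.3% with a median of 10 CpG dinucleotides, beside 56.3% and 13 over 21263 promoters of protein-coding genes. Kv promoters had a median of 64% GC and 18 CpG, and Kir promoters 53.3% and 8. The TATA motif TATAAA, searched on both strands, was found in 4 of the 72 promoters (5.56%), all of Kir genes, beside 12.6% of all promoters. The GC box GGGCGG was found in 50% beside 46.2%, and the cyclic AMP element TGACGTCA in 0 of 72 beside 2.23%. These are matches of letters in a 300-base window and were not related to the differences.

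The promoters below are those of Kcnh8 and Kcnn3, the members with the lowest p in each direction that the table holds, and of Kcnj10, the glial Kir gene. All 3 lie on the plus strand, at chr17:52602459-52602758, chr3:89519914-89520213 and chr1:172340960-172341259, and are written 5′ to 3′ with CpG dinucleotides in capitals. Kcnh8 and Kcnj10 hold 21 CpG each and a GC box, and Kcnn3 holds 11 and no GC box.
Kcnh8: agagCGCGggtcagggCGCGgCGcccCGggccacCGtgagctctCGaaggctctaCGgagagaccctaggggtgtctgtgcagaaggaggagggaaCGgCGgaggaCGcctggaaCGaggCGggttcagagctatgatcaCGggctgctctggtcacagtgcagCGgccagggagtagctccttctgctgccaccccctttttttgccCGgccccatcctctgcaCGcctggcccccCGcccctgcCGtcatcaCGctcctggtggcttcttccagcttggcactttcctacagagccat
Kcnn3: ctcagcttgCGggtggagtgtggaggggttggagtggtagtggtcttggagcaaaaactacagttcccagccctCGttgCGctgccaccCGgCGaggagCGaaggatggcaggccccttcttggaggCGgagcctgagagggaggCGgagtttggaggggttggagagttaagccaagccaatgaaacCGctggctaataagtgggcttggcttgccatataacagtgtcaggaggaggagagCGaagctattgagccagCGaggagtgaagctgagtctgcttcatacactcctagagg
Kcnj10: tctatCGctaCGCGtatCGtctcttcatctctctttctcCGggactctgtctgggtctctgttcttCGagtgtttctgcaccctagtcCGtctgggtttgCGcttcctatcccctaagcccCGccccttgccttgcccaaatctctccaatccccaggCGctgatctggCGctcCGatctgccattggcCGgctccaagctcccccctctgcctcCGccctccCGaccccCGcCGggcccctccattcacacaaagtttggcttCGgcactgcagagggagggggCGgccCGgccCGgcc

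Kcna genes encode the low-threshold Kv subunits of axons, and their 7 measured members showed 3 positive and 4 negative differences. Kcna1 measured 11.69 and 11.66 in wild-type mice and 11.77 and 11.76 in knockouts. Both knockout values lay above the wild-type values, at a difference of 0.09 (95% interval -0.091 to 0.27). Kcna2, its usual partner at the juxtaparanode beside myelinated nodes, measured 11.04 and 11.00 in wild-type mice and 11.02 and 10.92 in knockouts, which overlapped. Kcna6 measured 9.13 and 9.20 in wild-type mice and 9.12 and 9.13 in knockouts, so its knockout values lay at and just below the lower wild-type value. The other members (Kcna3, Kcna4, Kcna5 and Kcna7) overlapped between genotypes, with differences from -0.035 to 0.095.

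Kcnc and Kcnd genes serve fast firing and dendritic excitability, and 4 of their 6 measured members had mean levels over 10. Kcnc1, a channel of fast-spiking neurons, measured 11.41 and 11.35 in wild-type mice and 11.42 and 11.44 in knockouts, 0.05 higher with an interval of -0.14 to 0.24. Kcnc2, expressed in similar neurons, was lower in both knockout mice, at 11.16 and 11.12 against 11.23 and 11.18. Parvalbumin (Pvalb), a marker of fast-spiking interneurons, measured 11.87 and 11.86 in wild-type mice and 11.65 and 11.77 in knockouts (adjusted p 1 in limma). Over 8 interneuron markers the median difference was 0.01. The part of these cells in the Kcnc values, and of cerebellar tissue in the Kcnc and Pvalb values, was not tested. Kcnd2, the main subunit of the dendritic A-type current, measured 11.88 and 11.90 in wild-type mice and 11.81 and 11.78 in knockouts. Its difference of -0.095 had an interval of -0.28 to 0.086. Kcnd3, its relative, was 0.04 higher without overlap, at 10.70 in both wild-type mice and 10.73 and 10.75 in knockouts. These Kcnd genes lay on opposite sides of 0, and both intervals included 0. Kcnc4 and Kcnd1 overlapped, with differences of 0.015 and 0.025.

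Kcnq genes carry the M-current, which muscarinic receptors shut off. Kcnq3 measured 10.87 and 10.83 in wild-type mice and 10.74 and 10.78 in knockouts, lower in both mice by 0.09 (interval -0.27 to 0.095). Kcnq5 overlapped, at 9.26 in both wild-type mice and 9.42 and 9.21 in knockouts. Kcnq1, known from heart and epithelia, was dim and overlapped.

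Kcnh8 had the most negative difference and the smallest p of all channel genes. It belongs to the EAG-related family of Kv channels, and measured 5.82 and 5.72 in wild-type mice and 5.48 and 5.51 in knockouts. The difference was -0.28 (SE 0.076, interval -0.47 to -0.076), with an unadjusted p of 0.017 and an adjusted p of 1 in limma. By unadjusted p it ranked 112 among all genes. Its single probe set was below the median level, and without detection calls so dim a level cannot be told from background. Of the other 5 Kcnh genes, Kcnh2, the ERG channel that repolarises heart muscle and some neurons, was lower without overlap at 9.18 in both knockout mice against 9.22 and 9.23. Kcnh5 was 0.24 higher, but its knockout mice measured 6.39 and 5.95 against 6.00 and 5.87, so this rested on the first knockout mouse. Kcnh1, Kcnh3 and Kcnh7 overlapped, with differences of -0.015, -0.05 and 0.005.

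The modifier subunits, encoded by Kcnf, Kcng, Kcns and Kcnv genes, form no channel alone and tune the Kv channels they join. They held the other 2 genes with an unadjusted p under 0.05. Kcns2 measured 8.77 and 8.74 in wild-type mice and 8.96 and 9.09 in knockouts. This was a difference of 0.27 (SE 0.081, interval 0.058 to 0.48) with an unadjusted p of 0.0224 and an adjusted p of 1 in limma. Its second probe set, at a mean level of 6.80, measured 6.78 and 6.82 in knockouts against 6.78 and 6.83, a difference of -0.005. Averaged over both probe sets the difference was 0.13.

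Kcng1 measured 7.51 and 7.64 in wild-type mice and 7.36 and 7.35 in knockouts, with both knockout mice below. The difference was -0.22 (SE 0.08, interval -0.43 to -0.0098) with an unadjusted p of 0.0434 and an adjusted p of 1 in limma. Its dim second probe set gave -0.10. In the RefSeq gene table of GRCm38.p6, Kcng1 lies on chromosome 2 with 6 protein-coding genes between it and Bcas1, the nearest of 7 channel genes on that chromosome. The next nearest, Kcns1 and Kcnk15, had 94 and 100 genes between and differed by -0.02 and -0.10. Whether sequence or expression around the disrupted gene plays a part in the Kcng1 value was not tested. Of the 9 modifier genes 2 were positive and 7 negative, with a median of -0.04, and besides Kcns2 and Kcng1 the genotypes were apart for Kcng4 and Kcns3, both lower. Kcnf1, Kcng2, Kcns1, Kcnv1 and Kcnv2 overlapped, with differences from -0.18 to 0.13.

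**Figure D3:**
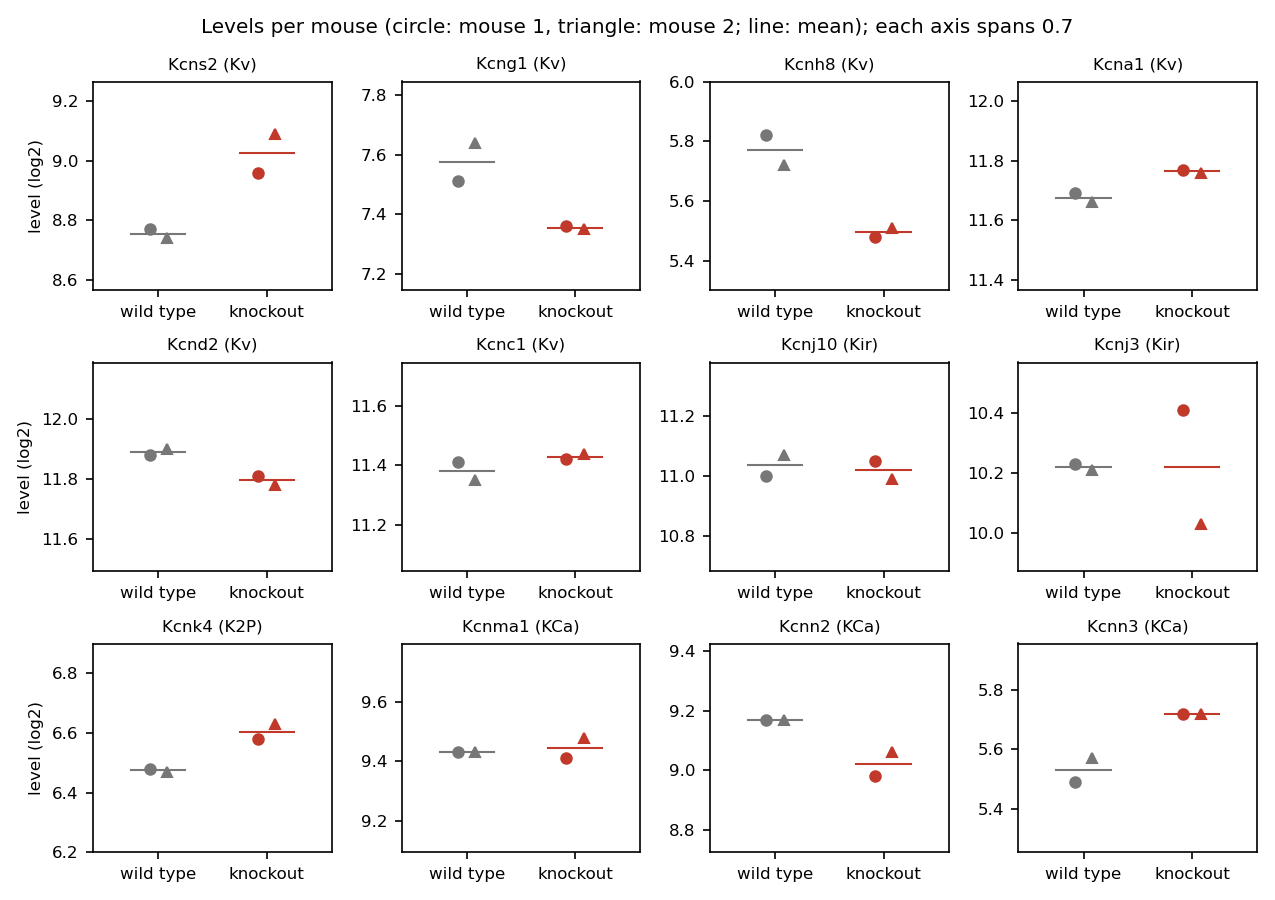
Log2 levels per mouse of 12 channel genes, with 2 wild-type mice in grey and 2 knockout mice in red; circles are mouse 1, triangles mouse 2 and lines group means. Every vertical axis spans 0.7 around the gene's own values, so steps can be compared but not heights. Kcns2, Kcng1, Kcnh8 and Kcnn3 show the widest gaps between genotypes, while the 2 knockout mice straddle the wild-type mice for Kcnj3 (10.41 and 10.03) and Kcnma1.

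Kir genes of glia overlapped between genotypes. Kcnj10 is the main potassium channel of astrocytes and is also found in oligodendrocytes, where it clears potassium along axons. It measured 11.00 and 11.07 in wild-type mice and 11.05 and 10.99 in knockouts, a difference of -0.015 with an interval of -0.21 to 0.18. Kcnj16, which joins it in mixed channels, measured 8.15 and 8.01 in wild-type mice and 8.24 and 7.99 in knockouts. Beside these, the mean of 10 astrocyte markers was 11.05 and 11.08 in wild-type mice and 11.15 and 11.09 in knockouts. The mean of 9 mature oligodendrocyte markers was 11.35 in both wild-type mice and 11.50 and 11.35 in knockouts. The median difference over the astrocyte markers was 0.01, with 6 positive and 4 negative. Over the oligodendrocyte markers it was 0.06, with 8 positive and 1 negative, where 9403 of 18193 genes were positive. Without overlap 2 astrocyte and 3 oligodendrocyte markers were higher and 0 lower, beside 15.5% and 12.8% of all genes. Gfap (0.29) and Myrf (0.28) were the only ones at an unadjusted p under 0.05 in limma, and 0 had an adjusted p under 0.05. The part of these cells in the Kcnj10 value was not tested.

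Kcnj3, Kcnj6 and Kcnj9 encode channels opened by G proteins, which slow neurons below inhibitory receptors. Kcnj3 measured 10.23 and 10.21 in wild-type mice and 10.41 and 10.03 in knockouts, so its mean difference of 0 hides knockout mice on opposite sides of the wild type. Its other probe sets did not agree on the order of the knockout mice. One gave 9.19 and 9.02, the same order, and the others gave the reverse, at 7.11 and 7.36 and at 4.28 and 4.63. Kcnj9 was lower in both knockout mice, at 8.94 and 8.91 against 9.02 and 8.98, a difference of -0.075 (interval -0.26 to 0.11). Kcnj6 overlapped with a difference of -0.02.

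Channels gated by ATP also overlapped. Kcnj11, their pore in neurons, measured 9.13 and 9.08 in wild-type mice and 9.09 and 9.11 in knockouts. Kcnj8, the pore in pericytes and vascular muscle, measured 6.80 and 7.04 in wild-type mice and 6.96 and 7.06 in knockouts. Its regulatory partner Abcc9 was higher in both knockout mice, at 7.75 and 7.71 against 7.42 and 7.58 (difference 0.23, unadjusted p 0.048, adjusted p 1 in limma). All 10 endothelial and mural markers had positive differences, as 9403 of 18193 genes did. Of them Tagln (0.32) and Acta2 (0.24) had an unadjusted p under 0.05 in limma, and 0 had an adjusted p under 0.05. Without overlap 5 of the 10 markers were higher, beside 15.5% of all genes. Their mean level was 8.78 and 8.75 in wild-type mice and 8.88 and 8.89 in knockouts. The part of these cells in the Abcc9 value was not tested.

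Kcnj13, a channel of choroid plexus epithelium, measured 8.72 and 8.67 in wild-type mice and 8.41 and 8.73 in knockouts. Kcne2, an accessory subunit abundant in the same epithelium, measured 7.19 and 7.62 in wild-type mice and 7.32 and 7.61 in knockouts. The mean of 9 choroid plexus markers was 7.91 and 7.99 in wild-type mice and 7.96 and 8.09 in knockouts. Of these markers 1, Sostdc1 (0.25), had an unadjusted p under 0.05 in limma, and 0 had an adjusted p under 0.05. Kcnj13 and Kcne2 both overlapped between genotypes. Of the classical strong rectifiers, Kcnj4 and Kcnj12 overlapped, and Kcnj2 was higher without overlap, at 2.96 and 3.04 in knockouts against 2.95 and 2.94, far below the median level. The remaining Kir genes, Kcnj1, Kcnj5, Kcnj14 and Kcnj15, were all below the median level and overlapped.

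K2P genes had 7 positive and 3 negative differences, with 2 at 0, and 0 of 12 passed. Kcnk1, a leak channel of neurons and astrocytes, measured 11.78 and 11.84 in wild-type mice and 11.84 and 11.90 in knockouts. Its lower knockout value equalled the higher wild-type value. Kcnk2, opened by stretch and lipids, measured 9.65 and 9.67 in knockouts against 9.62 and 9.63, higher in both mice by 0.035. Kcnk4, a relative known from nodes of Ranvier, measured 6.48 and 6.47 in wild-type mice and 6.58 and 6.63 in knockouts. Its difference of 0.13 (SE 0.07, interval -0.054 to 0.31) was the largest positive one of the family. Kcnk3, an acid-sensitive leak channel, measured 7.58 and 7.57 in knockouts against 7.49 and 7.50, and its difference of 0.08 was small but without overlap. Kcnk10, another stretch-sensitive relative, measured 7.63 and 7.82 in both genotypes. Kcnk5 and Kcnk15 were lower without overlap by 0.075 and 0.10, both from levels below the median. Kcnk6, Kcnk7, Kcnk12 and Kcnk16 overlapped, with differences from -0.085 to 0.055. Kcnk13, the leak channel of microglia, measured 7.48 and 7.53 in wild-type mice and 7.51 and 7.54 in knockouts. The mean of 7 microglia markers was 9.14 and 9.17 in wild-type mice and 9.08 and 9.16 in knockouts.

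Among KCa genes the small-conductance channels of the Kcnn family, which produce the afterhyperpolarisation, had small differences on both sides of 0. Kcnn2 measured 9.17 in both wild-type mice and 8.98 and 9.06 in knockouts, which is -0.15 (SE 0.073, interval -0.34 to 0.041). Kcnn3 measured 5.49 and 5.57 in wild type and 5.72 in both knockout mice, which is 0.19 (SE 0.073, interval -0.0011 to 0.38, unadjusted p 0.0509). Kcnn1 was lower in both knockout mice, at 6.87 and 6.99 against 7.01 and 7.04. The intervals of Kcnn1, Kcnn2 and Kcnn3 all included 0, and Kcnn3 lay below the median level, at a mean of 5.63. In limma the adjusted p was 1 for each. Kcnn4, known from blood and endothelial cells, overlapped with a difference of 0.

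Kcnma1, the pore of the large-conductance channel, measured 9.43 in both wild-type mice and 9.41 and 9.48 in knockouts. Kcnmb4, its neuronal accessory subunit, measured 10.29 and 10.20 in wild-type mice and 10.11 and 10.21 in knockouts. Both overlapped between genotypes, as did Kcnmb1 and Kcnmb2. The sodium-activated channel gene Kcnt1 was lower in both knockout mice, at 8.90 and 8.84 against 8.97 and 8.94. Kcnt2 measured 8.74 and 8.77 in wild-type mice and 8.91 and 8.53 in knockouts, on both sides of the wild type. Kcnu1, whose channel is known from sperm, was lower, at 7.02 in both knockout mice against 7.14 and 7.09. The other Kcne genes (Kcne1, Kcne1l, Kcne3 and Kcne4) overlapped, with differences from -0.075 to 0.02.

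Probe sets of one gene often did not share a direction. Of 38 genes with several probe sets, up to 5 each, the differences all had one sign in 10. Among the 21 genes with several probe sets above the median level they had one sign in 5. A gene with any difference of exactly 0 was not counted as having one sign. The same shares were not computed over all genes. Of the 67 probe sets that were not the brightest of their gene, 36 were below the median level. In these 67, 10 were higher and 6 lower without overlap, beside 13.9% and 13.2% of all probe sets. At an unadjusted p under 0.05 limma gave 4 of them, where 1.82% of all probe sets were higher and 1.61% lower. Of all 141, 0 had an adjusted p under 0.05 in limma, where 0.00444% of all probe sets were called lower and 0% higher.

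In 6 genes a second probe set separated the genotypes in the same direction as the brightest: Kcna1, Kcnd2, Kcnd3, Kcnj9, Kcnn1 and Kcnt1. These are 15.8% of the 38 genes, beside 8.53% of 9010 genes with several probe sets on the array, a difference that was not tested. For Kcna1 it measured 11.65 and 11.62 in wild-type mice and 11.70 and 11.66 in knockouts. For Kcnn1 it measured 6.71 and 6.83 in knockouts against 6.94 and 6.91, and for Kcnt1 8.14 and 8.16 against 8.29 and 8.23. Other bright probe sets of these genes overlapped: Kcnd2 had 2 at mean levels of 11.11 and 11.03 with differences of -0.02 and 0.01, and Kcna1 and Kcnt1 had 1 each with a difference of 0.005. The separating second probe sets of Kcnd2, Kcnd3 and Kcnj9 were dim, at mean levels of 3.33, 3.83 and 4.79. The Kcnj9 one had the most negative difference of all 141, at -0.33, while the other Kcnj9 probe sets gave -0.08 and 0.06.

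Kcns3 was the 1 gene whose probe sets separated the genotypes in opposite directions, as those of 5.09% of all genes with several probe sets did. The brightest measured 7.64 and 7.63 in wild-type mice and 7.42 and 7.58 in knockouts, while the other was higher in knockouts, at 6.60 and 6.55 against 6.29 and 6.39. The 5 Kcnma1 probe sets split in another way. The brightest was even over the 4 mice, whereas the dimmest measured 6.68 and 6.22 in wild-type mice and 6.85 and 5.54 in knockouts. The part of each transcript that a probe set reads was not analysed here.

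**Figure D4:**
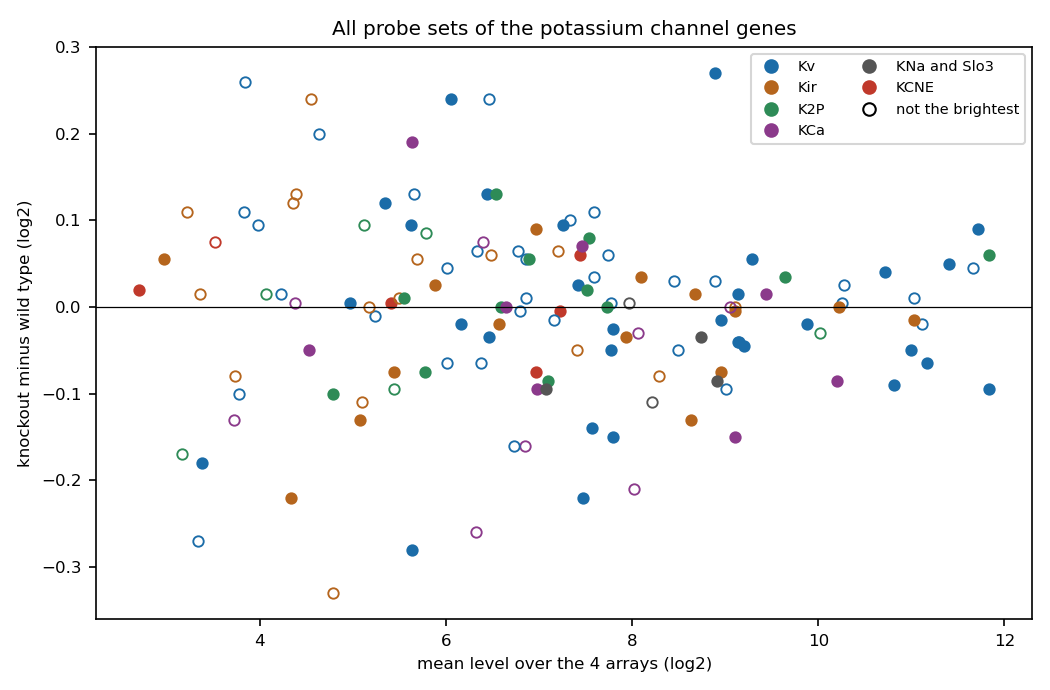
Each point is 1 of 141 probe sets of the channel genes, with its mean log2 level over the 4 arrays on the horizontal axis and the knockout minus wild-type difference (log2) on the vertical axis. Filled points are the brightest probe set of a gene and open points the others, coloured by family. Points range from -0.33 to 0.27, and those at levels over 10 lie between -0.095 and 0.09.

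Genes that assemble with the channels, or move potassium by other means, also showed small differences. Of 15 measured partner subunits 0 passed, 4 were positive and 9 negative, with a median of -0.02. Without overlap 1 was higher and 4 lower, together 33.3% beside 28.3% of all genes. The one that was higher is Abcc9, described above. Kcnip4, a calcium-binding partner of Kcnd channels, was among the lower, at 10.27 and 10.28 against 10.37 and 10.36, and so was Dpp6, another Kcnd partner, at 10.57 and 10.55 against 10.59 and 10.60. Of 19 measured genes for anchoring and trafficking 0 passed, and their differences ran from -0.085 to 0.06. Ank3, the ankyrin of the axon initial segment, differed by 0.06 and Ank2 by -0.06. Of 12 measured pumps and cotransporters 0 passed, with a median of 0.025. Of these 3 were higher and 2 lower without overlap, beside 15.5% and 12.8% of all genes. Fxyd6, a regulator of the sodium pump, measured 10.29 and 10.30 against 10.19 and 10.20, and Slc12a4, a potassium-chloride cotransporter, 7.74 and 7.72 against 7.60 and 7.65. The cation channels Hcn2 and Hcn3 differed by 0.045 and -0.035.

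Several channel genes are neighbours in the genome. Of 9 neighbouring pairs 4 had differences of one sign, and the same share was not computed over other neighbouring genes. Kcna1, Kcna5 and Kcna6 form several of these pairs, which are therefore not independent. The 74 genes lie on 18 chromosomes, with 9 pairs of genes that have at most 1 protein-coding gene between them in the RefSeq table. On chromosome 6, Kcna1 and Kcna5 had differences of 0.09 and 0.095 and Kcna6 one of -0.04. On chromosome 3, Kcna2 had -0.05 and Kcna3 0.095. On chromosome 1, the adjacent Kcnj9 and Kcnj10 had -0.075 and -0.015.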

How the data were processed

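Total RNA (100 ng) was labelled and hybridised to 1-colour Affymetrix arrays, per the labels' protocols. The deposited values are log2 levels per probe set made by the authors with RMA (per the submitters' processing notes), whose software and settings the sources used here do not give. The table had 45101 probe sets, of which 64 controls were left out. Of the 45037 tested, 34945 named 1 gene, 932 several and 9160 none in the platform annotation. No detection calls were used, so a dim level cannot be told from background and its fold change is compressed. The number of arrays limits the precision. Nothing in the labels gives litter or batch.

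Knockout was compared with wild type by lmFit and eBayes in limma 3.58.1 (R 4.3.3), two-sided, with p-values adjusted by Benjamini-Hochberg across every probe set and called under 0.05. The fit had 2 residual and 2.74 prior degrees of freedom. With so few mice, an exact permutation of 2 against 2 mice cannot give a two-sided p below 0.333. The test was checked on simulated data with planted changes larger than any channel difference here, so that check does not cover differences of this size. The channel genes, lists and tests were chosen with earlier results of these data known. Genes to name were, per family, the 3 brightest and up to 3 of smallest p without overlap. To these came a list of well-known channels and up to 2 of each other list. Those of the marker lists are given where their unadjusted p in limma was under 0.05, and otherwise only in part. Further genes are named after their values were seen, to account for the families. Marker lists of striatum, thalamus, cortex with hippocampus, and pituitary were also computed. Of their genes 0 had an adjusted p under 0.05 in limma, and their medians were 0.025, -0.02, -0.075 and 0.07. Without overlap 3, 0, 1 and 1 were higher and 0, 4, 3 and 0 lower, of 7, 8, 8 and 7 genes. Over all genes the shares were 15.5% and 12.8%. The pituitary one was Gh, at 6.88 and 7.53 in knockouts against 6.44 and 6.55 (0.71, unadjusted p 0.0271 in limma). The part of these tissues in the channel values was not tested. Alternatives tried were leaving out each array, mouse number as a block, averaging a gene's probe sets, dropping dim ones, a robust intensity trend, centring arrays on their medians and a second quantile normalization.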

Additional observations from a re-analysis of the deposited data

How the results depend on the processing

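Under every alternative run 0 of the channel genes passed the threshold in limma, with 0 to 8 of them at an unadjusted p under 0.05. Over all probe sets 2 calls became 10 with an intensity trend and robust variance, 1 with dim probe sets left out, 1 with the mean of a gene's probe sets, 0 with mouse number as a replicate block and 0 to 0 when 1 array was left out. With the block, whose numbers correlated at 0.241 between genotypes over probe sets and are not stated to pair the mice, the channel count stayed at 0. Leaving out 1 array moved the median of all channel genes between -0.058 and 0.01, of Kv between -0.06 and 0.02, of Kir between -0.05 and -0.005, of K2P between -0.04 and 0.06 and of KCa between -0.11 and 0.05; the other settings moved these by less than the spread between mice. Without the second knockout array, which stood apart in nasal markers, the medians were -0.058 for all channel genes, -0.06 for Kv, -0.04 for K2P and -0.11 for KCa, and -0.015 for Kir as with all arrays. Kcns2 ranged from 0.21 to 0.34, Kcng1 from -0.29 to -0.16 and Kcnh8 from -0.33 to -0.23 when 1 array was left out. Of 34 named channel genes 10 changed sign under some alternative, each from a difference of at most 0.13. Bcas1 passed with the intensity trend (-1.29, adjusted p 0.0383 in limma) and was 0.038 with its probe sets averaged.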
